A study of Mus musculus with 20 samples.

Results

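The semaphorins, their plexin receptors and the neuropilin co-receptors were followed in colon fibroblasts of the mouse that had received organoid-conditioned medium, using RNA-seq. The 34 members were the genes whose symbol starts with Sema plus a digit or with Plxn, plus Nrp1 and Nrp2, out of 47729 gene identifiers counted. They comprised 7 class 3, 6 class 4, 2 class 5, 4 class 6 and 1 class 7 semaphorins, 9 plexins, 2 neuropilins and 3 RNAs antisense to Plxna4. Levels are given for all 34, in CPM (counts scaled to library depth, with TMM factors). Changes are given for the 25 members whose mean reached 0.5 CPM in at least 1 of the 5 groups. That threshold was applied to the same libraries, so passing it is a choice made on measured values and not a finding. Sema6a lay just inside it, with a highest group mean of 0.765 CPM, while Sema4d (0.431 CPM) and Sema4a (0.392 CPM) lay just outside.

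Semaphorins are secreted or membrane-bound ligands that steer the movement and shape of axons, vessels and other cells. Plexins are their main receptors, and their cytoplasmic part acts on small GTPases to change the cytoskeleton and adhesion. Most secreted class 3 semaphorins bind plexins only together with a neuropilin, and neuropilins also bind vascular endothelial growth factors. In the gut wall, class 3 semaphorins are known for guiding nerves and vessels.

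All libraries were made from polyadenylated RNA of colon fibroblasts of C57BL6/J mice, kept in Advanced DMEM F12 with 10% serum. The groups of 4 libraries were irradiated APTKA medium, APTKA medium, irradiated APTK medium, APTK medium and untreated fibroblasts, which the titles call wild-type. Treated cells received organoid-conditioned medium for 24 h, and the irradiated arms carry 5 fractions of 2 Gy. The abbreviations APTK and APTKA are not spelled out in the labels. It is not stated whether organoids, medium or fibroblasts took the dose, and the labels name neither an irradiated untreated group nor a group given unconditioned organoid medium. Replicates I to IV are not described as coming from different cultures or mice, and p-values therefore refer to library-to-library spread, possibly technical.

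Library totals lay between 17.3 and 31.6 M counts. Replicate pairs differed most within irradiated APTK medium (chi-square per degree of freedom 16.2 to 83.4, against 4.61 to 39.7 in the other groups). Member counts of comparisons with this group are given with and without its libraries II and IV. The 10 fibroblast markers summed to 39730 to 43430 CPM with APTKA medium, 55690 to 61590 CPM with APTK medium and 64650 to 73050 CPM in untreated fibroblasts, and to 39700 to 50670 CPM with irradiated APTKA and 49780 to 57900 CPM with irradiated APTK medium. Markers of epithelium summed to at most 2.77 CPM in any library, of endothelium to at most 3.44 CPM and of mesothelium to at most 0.604 CPM. Of 8 leukocyte markers 3 passed the expression filter, and Cd3e was at 0 in every library. The leukocyte list summed to 4.86 to 5.65 CPM with APTKA medium, 6.94 to 8.26 CPM with APTK medium and 8.92 to 9.41 CPM in untreated fibroblasts, without overlap, and to 4.96 to 5.91 CPM with irradiated APTKA and 7.45 to 9.998 CPM with irradiated APTK medium. The endothelial list summed to 1.80 to 2.24 CPM with APTKA medium, 1.19 to 2.04 CPM with APTK medium and 2.46 to 3.44 CPM in untreated fibroblasts. The 8 smooth muscle and pericyte markers, all above the filter, summed to 848 to 932 CPM with APTKA medium, below the 1090 to 1249 CPM with APTK medium and the 1009 to 1224 CPM in untreated fibroblasts. With irradiated APTKA medium they summed to 825 to 1043 CPM and with irradiated APTK medium to 994 to 1204 CPM. Of 8 markers of enteric glia and neurons, 4 passed the expression filter. All 8 together summed to 95.9 to 110.7 CPM with APTKA medium, 50.8 to 61.4 CPM with APTK medium and 85.0 to 103.3 CPM in untreated fibroblasts. Nearly all of this was Tubb3, while Sox10 reached at most 0.105 CPM. The part of these marker levels in the results below was not tested. In bulk RNA, fewer cells of a type and less RNA per cell cannot be told apart.

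On the scale of CPM per kb of exon, untreated fibroblasts expressed the receptor Plxnb2 at the highest level of all members (87.7), ahead of the co-receptor Nrp1 (55.7). The secreted ligands Sema3c (37.3) and Sema3a (32.9) came next, then the receptor Plxna1 (26.6) and the co-receptor Nrp2 (26.6), which were equal within their spread. Sema4c, a membrane-bound ligand of Plxnb2, followed at 10.4, and the other members lay below it. Class 3 ligands made up 71.9 ± 1.07% of the semaphorin signal per kb with APTKA medium, 70.9 ± 0.480% with APTK medium and 80.2 ± 1.58% in untreated fibroblasts (SD, n = 4 each). The class 3 sum per kb was 48.2 ± 1.07 with APTKA medium, 56.7 ± 1.65 with APTK medium and 89.5 ± 4.85 in untreated fibroblasts, with no overlap between the 3 groups. Per kb, Sema3c had the highest class 3 mean in untreated fibroblasts and Sema3a in both plain media. The Sema3c to Sema3a ratio per kb was 0.754 ± 0.0410 with APTKA medium, 0.254 ± 0.0135 with APTK medium and 1.13 ± 0.116 in untreated fibroblasts. The untreated ratio ran from 0.9675 to 1.232, with Sema3a the higher in library IV. This order depends on the exon lengths used, since in CPM untreated fibroblasts had more Sema3a than Sema3c (456.5 against 266.4).

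**Figure D1:**
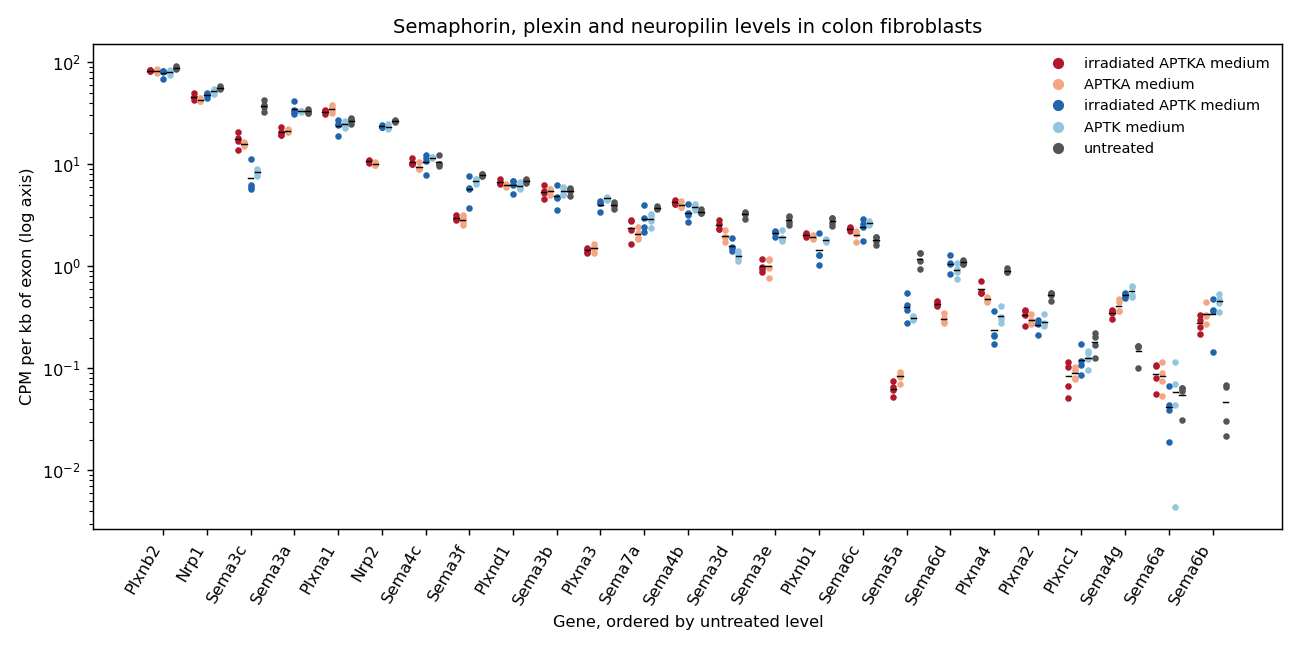
Levels of the 25 members in CPM per kb of exon (log axis), ordered by their untreated mean, with 1 point per library, a bar at each group mean and the 5 groups side by side in colour. Plxnb2 and Nrp1 stand at the top in every group, and Sema5a averages 0.0633 per kb with irradiated APTKA medium and 1.19 per kb in untreated fibroblasts.

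The remaining 9 members stayed below 0.5 CPM in every group. Sema4a and Sema4d still passed the expression filter of the test. Sema3g had at most 0.268 CPM in any group mean, Plxnb3 0.164, Sema4f 0.130 and Sema5b 0.0878 CPM. The antisense RNA Plxna4os1 had 5 counts over the 20 libraries, Plxna4os2 had 6, and Plxna4os3 had none. Among the 25, Sema6b was below 0.5 CPM in untreated fibroblasts and Sema6a in untreated fibroblasts and with irradiated APTK medium, so both entered through the groups where they were high. The counting gave no stated strand setting, and 10.7% of Plxna1 exon bases lie under Gm26811, 7.27% of Sema4c under D430040D24Rik and 2.68% of Plxnb1 under Gm7628, all on the opposite strand, and reads of these stretches cannot be told apart. Gm26811 itself had 49 to 132 counts per library.

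Changes were tested with edgeR's quasi-likelihood test in 1 fit of all 20 libraries, with p-values adjusted over 14820 genes, and a member is said to rise or fall where its adjusted p was under 0.05. With APTKA medium against untreated fibroblasts, 4 of the 25 members rose and 15 fell, where 31.5% of all genes tested rose and 29.9% fell. The median log2 fold change was -0.65 over the 25 members and 0.003 over all genes, and 9 members moved by at least 2-fold, beside 12.6% of all genes. With APTK medium against the same untreated libraries, 4 members rose and 9 fell, beside 20.9% and 22.5% of all genes. The median was then -0.16 over the members and 0.003 over all genes, and 6 members moved by at least 2-fold, beside 6.36% of all genes. With APTKA medium against APTK medium, 4 members rose and 12 fell, beside 31.1% and 31.8% of all genes. The median was -0.29 over the members and -0.026 over all genes. In all 3 comparisons the share of members that fell was above that of all genes and the share that rose was below it. Sema6b, which entered through its treated groups, is among the members that rose over untreated fibroblasts. These counts describe genes picked by name and by level, and the list was not tested as a whole.

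**Figure D2:**
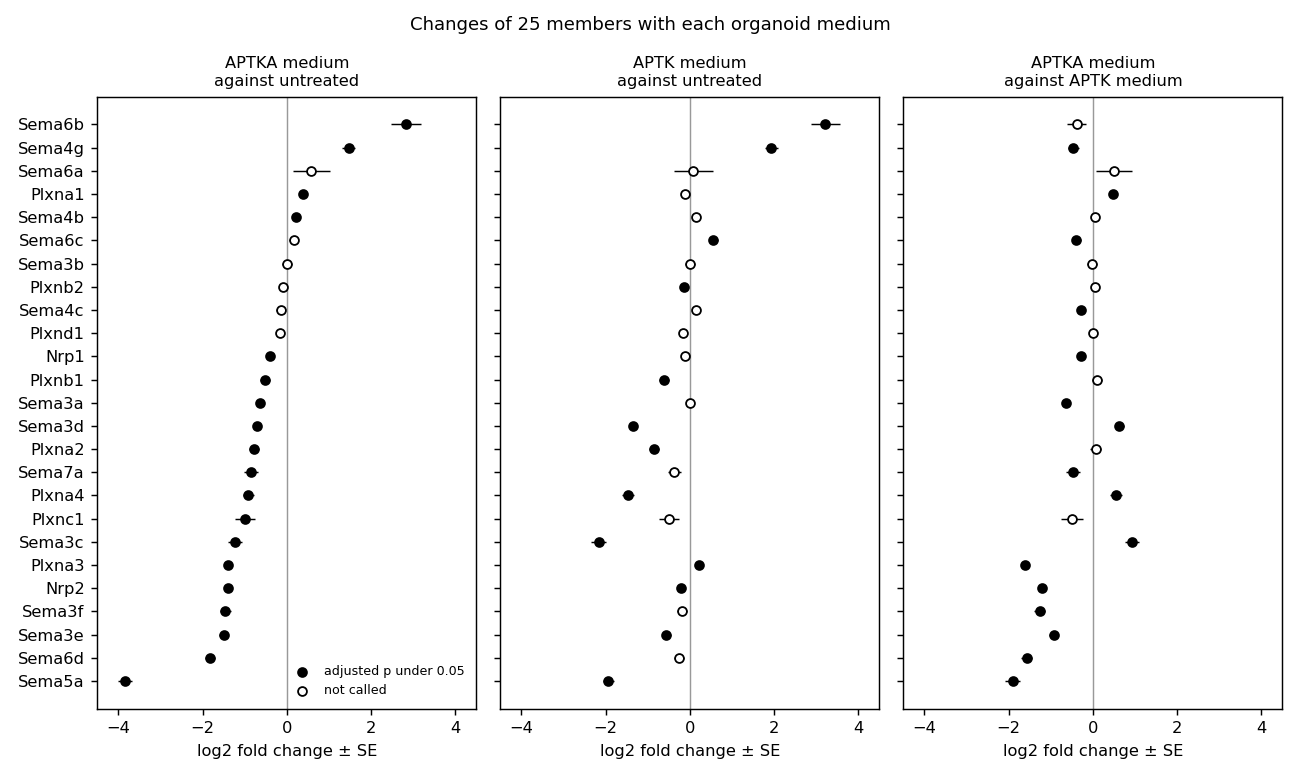
Log2 fold change of each of the 25 members (points, with SE bars) with APTKA medium against untreated, APTK medium against untreated and APTKA against APTK medium. Filled points passed an adjusted p of 0.05, and members are ordered by their change with APTKA medium, from Sema6b (2.83) at the top to Sema5a (-3.84) at the bottom.

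The largest fall with APTKA medium was that of Sema5a, a transmembrane semaphorin with thrombospondin repeats that is known in mouse retina as a ligand of A plexins (ENSMUSG00000022231, chromosome 15, 32244810 to 32696341, plus strand). Sema5a had 1.31, 1.54, 1.65 and 1.72 CPM with APTKA medium, 5.64, 6, 6.03 and 5.51 CPM with APTK medium and 24.9, 25.2, 21.2 and 17.5 CPM in untreated fibroblasts (libraries I to IV). The groups did not overlap, and untreated libraries III and IV were lower than I and II. The log2 fold change was -3.84 ± 0.17 (SE) with APTKA medium (adjusted p = 1.79e-16) and -1.93 ± 0.14 with APTK medium (adjusted p = 3.18e-11). Between the media it was -1.90 ± 0.18 (adjusted p = 1.19e-09), so the APTKA level was below the APTK level. The promoter window of Sema5a is printed because its level changed most. It covers 250 bases before to 50 after the RefSeq start on GRCm38.p6 (chr15:32244563-32244862, plus strand), and capitals mark the GC box GGGCGG on either strand.
Sema5a: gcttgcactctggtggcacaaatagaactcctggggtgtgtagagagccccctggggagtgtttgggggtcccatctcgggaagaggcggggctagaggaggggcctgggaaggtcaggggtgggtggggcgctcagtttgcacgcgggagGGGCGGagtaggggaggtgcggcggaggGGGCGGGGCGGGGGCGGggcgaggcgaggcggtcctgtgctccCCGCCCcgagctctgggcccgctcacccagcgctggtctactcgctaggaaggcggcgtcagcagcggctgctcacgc
GC boxes matched at 5 positions of this window, and 2 of them shared a base.

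Among the secreted class 3 ligands, 5 of 6 tested members fell with APTKA medium and 3 of 6 with APTK medium, and none rose over untreated fibroblasts in either. Of all genes, 29.9% fell and 31.5% rose with APTKA medium, and 22.5% fell and 20.9% rose with APTK medium. The class was not tested as a whole. Sema3c, which binds both neuropilins and is needed for the cardiac outflow tract in mice (ENSMUSG00000028780, chromosome 5, 17574281 to 17730268, plus strand), had 107, 118, 114 and 114 CPM with APTKA medium, 60.8, 54.9, 63.7 and 58.4 CPM with APTK medium and 305, 271, 259 and 229.7 CPM in untreated fibroblasts. APTK libraries were the lowest, untreated libraries the highest, and no groups overlapped. Sema3c fell with both media, at -1.24 ± 0.17 log2 with APTKA medium (adjusted p = 9.15e-06) and -2.16 ± 0.18 with APTK medium (adjusted p = 5.35e-08). It was higher with APTKA than with APTK medium, by 0.93 ± 0.18 (adjusted p = 0.000209). The window of its RefSeq start on GRCm38.p6 (chr5:17574566-17574865, plus strand) is shown beside that of Sema5a, since it fell most with APTK medium. Capitals mark the GC box (GGGCGG) and the hypoxia response core (ACGTG) on either strand.
Sema3c: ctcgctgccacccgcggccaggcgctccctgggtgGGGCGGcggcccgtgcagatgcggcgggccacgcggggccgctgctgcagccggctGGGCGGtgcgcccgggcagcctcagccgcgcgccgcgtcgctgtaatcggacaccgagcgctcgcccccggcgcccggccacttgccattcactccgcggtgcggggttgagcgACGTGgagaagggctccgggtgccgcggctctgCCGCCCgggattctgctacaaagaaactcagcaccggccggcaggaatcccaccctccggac
The window held 3 GC boxes and 1 ACGTG, and the Sema5a window held no match to that core.

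Sema3d, a guidance cue for axons and endothelial cells (ENSMUSG00000040254, chromosome 5, 12383385 to 12588948, plus strand), had the same order of groups. Its levels were 14.7, 16.7, 16.7 and 19.4 CPM with APTKA medium, 11.3, 9.71, 10.4 and 12.2 CPM with APTK medium and 28.7, 28.96, 28.1 and 25.04 CPM in untreated fibroblasts. All APTKA libraries lay between the APTK and the untreated ones. Sema3d fell, at -0.72 ± 0.095 log2 with APTKA medium (adjusted p = 2.06e-07) and -1.35 ± 0.098 with APTK medium (adjusted p = 1.76e-11), and was higher with APTKA than with APTK medium (0.63 ± 0.10, adjusted p = 4.10e-06). The enteric glia and neuron markers given above were likewise lowest with APTK medium, and their part in the levels of Sema3c, Sema3d and Plxna4 was not tested.

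Sema3e, Sema3f and Sema3a took the opposite order between the media. Sema3e, which binds Plxnd1 without a neuropilin and repels vessels (ENSMUSG00000063531, chromosome 5, 14025276 to 14256689, plus strand), had 7.03, 8.97, 10.7 and 10.97 CPM with APTKA medium, 20.99, 16.3, 16.9 and 17.4 CPM with APTK medium and 27.9, 25.4, 23.7 and 28.8 CPM in untreated fibroblasts. The 3 groups did not overlap, with APTKA lowest. Its log2 fold change was -1.50 ± 0.11 with APTKA medium (adjusted p = 8.69e-12), -0.57 ± 0.11 with APTK medium (adjusted p = 0.000108) and -0.93 ± 0.11 between the media (adjusted p = 7.85e-08). Sema3f, which binds Nrp2 in preference to Nrp1 (ENSMUSG00000034684, chromosome 9, 107681500 to 107710475, minus strand), had 14.2, 16.3, 15.4 and 13.01 CPM with APTKA medium, 32.8, 35.1, 36.8 and 36.9 CPM with APTK medium and 39.3, 39.5, 41.3 and 41.7 CPM in untreated fibroblasts. APTKA libraries stood well below the others. Sema3f fell with APTKA medium (-1.46 ± 0.13, adjusted p = 1.33e-09) and was lower with APTKA than with APTK medium (-1.26 ± 0.13, adjusted p = 1.42e-08). With APTK medium it measured -0.19 ± 0.12 (adjusted p = 0.2), and a fit of those 2 groups alone gave an adjusted p of 0.00898.

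Sema3a, the Nrp1 ligand first known for collapsing sensory growth cones, averaged 292 ± 10.3 CPM with APTKA medium, 455 ± 7.71 CPM with APTK medium and 457 ± 18.99 CPM in untreated fibroblasts. It fell with APTKA medium (-0.65 ± 0.070, adjusted p = 6.26e-09) and measured -0.004 ± 0.069 with APTK medium (adjusted p = 0.968). Sema3b, another neuropilin ligand, averaged 25.8 ± 1.63, 26.1 ± 2.504 and 25.96 ± 2.12 CPM in the same 3 groups, and its libraries overlapped between these groups.

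The members that rose most were Sema6b and Sema4g, both membrane-bound. Sema6b, a ligand of A plexins (ENSMUSG00000001227, chromosome 17, 56123085 to 56140343, minus strand), had 1.28, 1.75, 1.09 and 1.33 CPM with APTKA medium, 1.42, 1.87, 2.12 and 1.74 CPM with APTK medium and 0.1199, 0.0862, 0.273 and 0.261 CPM in untreated fibroblasts. The untreated libraries held 19 counts of it in all, and no treated library overlapped them. Sema6b rose by 2.83 ± 0.35 log2 with APTKA medium (adjusted p = 7.57e-08) and by 3.22 ± 0.34 with APTK medium (adjusted p = 1.39e-08), and the media measured -0.38 ± 0.23 apart (adjusted p = 0.151). As its untreated mean was below 0.5 CPM, it could enter only with a treated group above that level. The rule thus fixed the direction of a difference from at least 1 treated group, and also a smallest size for it. The rise of Sema6b and its calls are therefore not independent of the rule. Sema4g, which is known to bind Plxnb2 in mouse cerebellum (ENSMUSG00000025207, chromosome 19, 44989101 to 45003397, plus strand), had 3.16, 4.13, 3.83 and 3.14 CPM with APTKA medium, 4.57, 5.35, 4.31 and 5.51 CPM with APTK medium and 1.44, 0.862, 1.41 and 1.42 CPM in untreated fibroblasts. Its untreated libraries were all below the treated ones, library II lowest. Sema4g rose by 1.46 ± 0.16 with APTKA medium (adjusted p = 4.76e-09) and by 1.93 ± 0.15 with APTK medium (adjusted p = 6.55e-11), and was lower with APTKA than with APTK medium (-0.47 ± 0.13, adjusted p = 0.00248).

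Promoter windows of these rising members are printed for comparison with those of Sema5a and Sema3c. RefSeq gives Sema6b a pair of starts on the minus strand of GRCm38.p6 (chr17:56140294-56140593 and chr17:56133803-56134102) and Sema4g 1 on the plus strand (chr19:44989094-44989393). Capitals mark the GC box, the hypoxia response core and the AP-1 site (TGACTCA), on either strand.
Sema6b, distal: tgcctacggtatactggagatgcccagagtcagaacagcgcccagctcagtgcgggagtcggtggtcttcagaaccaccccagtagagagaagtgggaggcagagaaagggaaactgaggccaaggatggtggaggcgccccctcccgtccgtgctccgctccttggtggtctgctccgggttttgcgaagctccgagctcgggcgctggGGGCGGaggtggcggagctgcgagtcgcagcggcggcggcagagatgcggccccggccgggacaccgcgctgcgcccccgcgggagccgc
Sema6b, proximal: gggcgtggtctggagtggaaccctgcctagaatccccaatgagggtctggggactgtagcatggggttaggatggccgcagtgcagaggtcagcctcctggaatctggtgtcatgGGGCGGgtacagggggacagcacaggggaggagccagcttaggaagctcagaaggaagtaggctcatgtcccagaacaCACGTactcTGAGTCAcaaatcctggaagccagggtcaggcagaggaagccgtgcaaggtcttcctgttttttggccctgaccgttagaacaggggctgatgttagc
Sema4g: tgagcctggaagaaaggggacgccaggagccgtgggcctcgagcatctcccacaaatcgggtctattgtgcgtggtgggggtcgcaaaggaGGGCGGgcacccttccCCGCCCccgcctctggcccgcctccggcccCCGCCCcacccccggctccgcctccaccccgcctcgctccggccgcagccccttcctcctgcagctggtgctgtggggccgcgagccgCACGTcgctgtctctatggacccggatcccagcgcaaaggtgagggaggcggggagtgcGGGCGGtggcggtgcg
Of 37 windows found for 26 of the 34 members, 27 held a GC box, 8 the hypoxia response core, 2 the AP-1 site, 3 the TEAD site (GGAATG), 5 the NF-kB consensus and 0 the TATA box (TATAAA). Over all 32851 RefSeq windows of this length, the shares with a match were 35.7%, 19.6%, 5.2%, 14.7%, 8.46% and 13.6% in the same order. A match is a string in the window and not a binding site.

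Sema6d, a class 6 ligand known to act through Plxna1 in chick heart and mouse immune cells (ENSMUSG00000027200, chromosome 2, 124089969 to 124667770, plus strand), had 3.698, 3.01, 3.31 and 2.90 CPM with APTKA medium, 7.94, 9.899, 9.32 and 11.4 CPM with APTK medium and 12.1, 11.9, 11.2 and 10.97 CPM in untreated fibroblasts. APTKA libraries stood below all others, and the APTK and untreated libraries overlapped. Sema6d fell with APTKA medium (-1.83 ± 0.12, adjusted p = 5.43e-13) and was lower with APTKA than with APTK medium (-1.57 ± 0.12, adjusted p = 1.71e-11). With APTK medium it measured -0.26 ± 0.11 (adjusted p = 0.0581). Without APTK library IV the value was -0.35 (adjusted p = 0.0176). Sema6d also passed there with DESeq2 (adjusted p = 0.0479), with its size factors in edgeR (0.0477) and in a fit of only the groups compared (0.0432).

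Among the other membrane-bound ligands the changes were smaller. Sema7a, a GPI-anchored ligand of Plxnc1 and beta1 integrin, averaged 6.795 ± 0.8402 CPM with APTKA medium, 9.45 ± 1.32 CPM with APTK medium and 12.2 ± 0.313 CPM in untreated fibroblasts. It fell with APTKA medium (-0.85 ± 0.16, adjusted p = 7.50e-05) and measured -0.37 ± 0.16 with APTK medium (adjusted p = 0.0587). Sema7a passed there without APTK library IV (-0.44, adjusted p = 0.0482). No library left out, it also passed with no filter (adjusted p = 0.00444), DESeq2 (0.0370), the replicate block (0.0337) and a fit of only the groups compared (0.00360). Sema6c averaged 12.04 ± 1.297, 15.8 ± 0.532 and 10.8 ± 0.904 CPM in these groups and rose with APTK medium (0.55 ± 0.11, adjusted p = 0.000121). Sema4c averaged 43.2 ± 3.49, 52.8 ± 0.702 and 47.95 ± 5.82 CPM and was lower with APTKA than with APTK medium (-0.29 ± 0.098, adjusted p = 0.0132). Sema4b averaged 22.5 ± 1.37, 21.5 ± 1.25 and 19.3 ± 0.785 CPM. It rose by 0.22 ± 0.085 with APTKA medium (adjusted p = 0.0272), a call that was lost without untreated library I or III or APTKA library III (adjusted p = 0.0587 to 0.0914). Upper quartile scaling lost that call too (0.19, adjusted p = 0.0678). Sema6a, at 0.7299 ± 0.222, 0.515 ± 0.412 and 0.479 ± 0.138 CPM, passed in none of these comparisons with all libraries, and APTKA against APTK medium gave 1.02 (adjusted p = 0.0489) without APTK library IV.

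**Figure D3:**
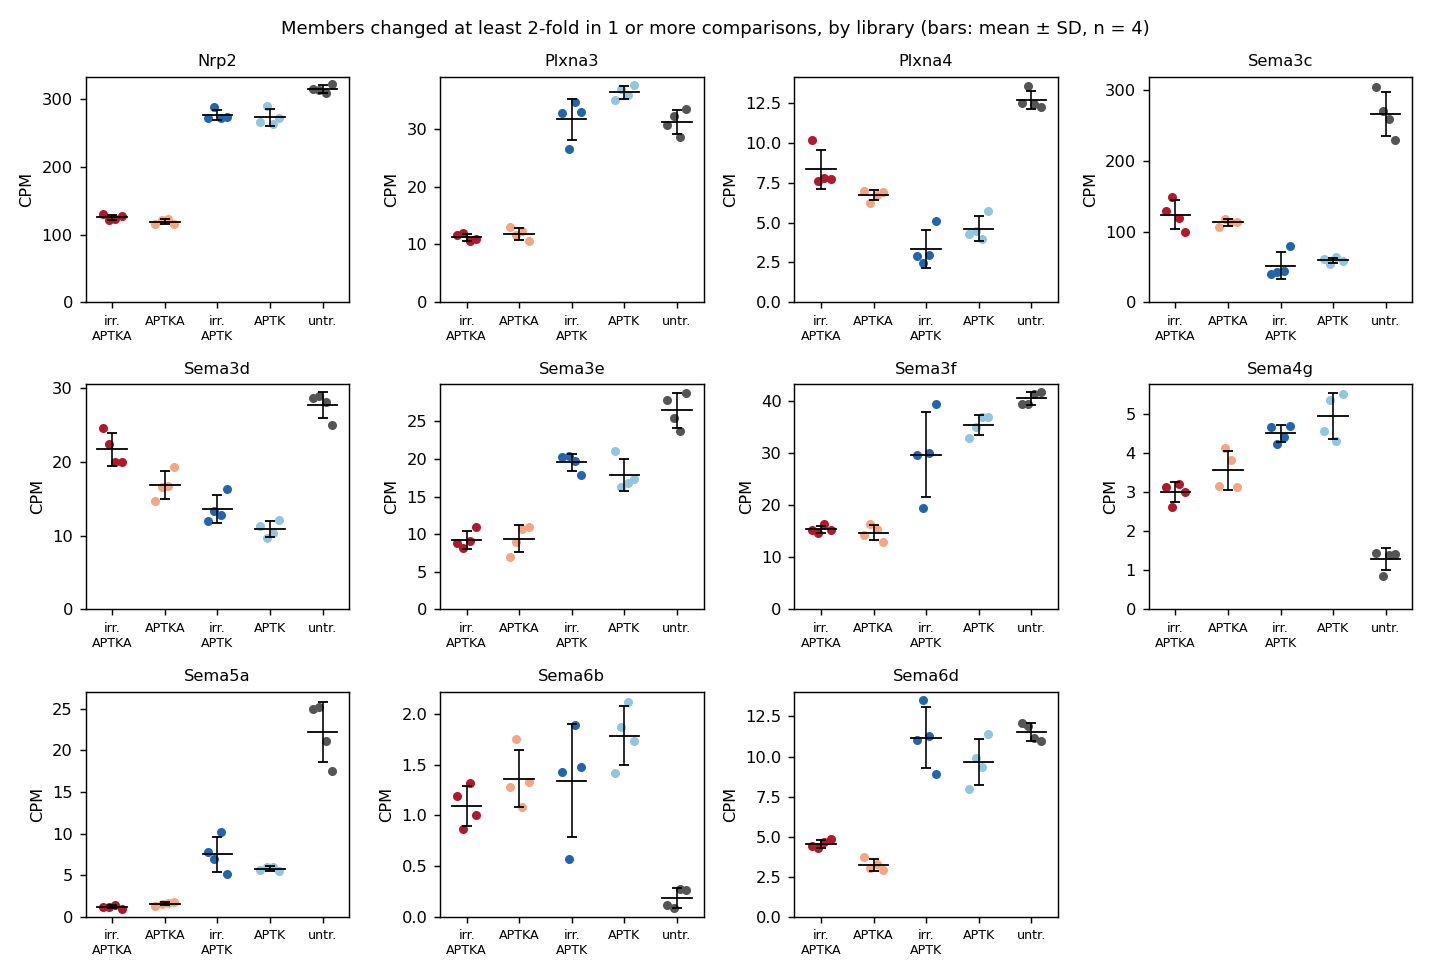
CPM in each of the 20 libraries (points), with group mean ± SD (n = 4), for the 11 members that passed the test with a change of at least 2-fold in 1 or more comparisons. Nrp2, Plxna3, Sema3e, Sema3f, Sema5a and Sema6d are lowest in both APTKA groups, whereas Plxna4, Sema3c and Sema3d are lowest in both APTK groups.

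Both neuropilins fell with APTKA medium, Nrp2 by far more. Nrp2, co-receptor of Sema3f and of lymphatic growth factors (ENSMUSG00000025969, chromosome 1, 62703285 to 62818695, plus strand), had 116, 121, 123 and 116 CPM with APTKA medium, 266, 290.4, 263 and 273 CPM with APTK medium and 315, 313, 309 and 322 CPM in untreated fibroblasts. APTKA libraries were at well under the level of any other plain library. Its log2 fold change was -1.41 ± 0.045 with APTKA medium (adjusted p = 8.86e-20), -0.21 ± 0.044 with APTK medium (adjusted p = 0.000468) and -1.20 ± 0.045 between the media (adjusted p = 4.57e-18). Nrp1, co-receptor of Sema3a and of Vegfa, averaged 412 ± 11.5 CPM with APTKA medium, 503 ± 24.1 CPM with APTK medium and 545 ± 15.7 CPM in untreated fibroblasts. Nrp1 fell, at -0.40 ± 0.053 with APTKA medium (adjusted p = 1.93e-07) and measured -0.12 ± 0.053 with APTK medium (adjusted p = 0.0768). With DESeq2 the latter passed (-0.13, adjusted p = 0.0286). Per kb, the Nrp2 to Nrp1 ratio was 0.238 ± 0.0128 with APTKA medium, 0.449 ± 0.0224 with APTK medium and 0.478 ± 0.0106 in untreated fibroblasts (SD, n = 4 each).

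Of 8 tested plexins, 1 rose and 5 fell with APTKA medium (31.5% and 29.9% of all genes). With APTK medium, 1 rose and 4 fell (20.9% and 22.5% of all genes). Plxna3, known as a receptor of Sema3f together with Nrp2 (ENSMUSG00000031398, chromosome X, 74329066 to 74344689, plus strand), had 12.9, 11.6, 12.3 and 10.6 CPM with APTKA medium, 35, 36.9, 35.9 and 37.6 CPM with APTK medium and 30.6, 32.2, 28.6 and 33.5 CPM in untreated fibroblasts. APTKA libraries were the lowest, with a wide gap, and APTK libraries lay just above the untreated ones. Plxna3 fell with APTKA medium (-1.40 ± 0.080, adjusted p = 1.64e-14) and was lower with APTKA than with APTK medium (-1.62 ± 0.079, adjusted p = 9.99e-16). It rose by 0.22 ± 0.074 with APTK medium (adjusted p = 0.0176), a call lost without untreated library III (0.18, adjusted p = 0.0758) or APTK library IV (0.20, adjusted p = 0.0501).

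Plxna4, a receptor of Sema3a with Nrp1 and of class 6 ligands (ENSMUSG00000029765, chromosome 6, 32144268 to 32588192, minus strand), had 6.99, 6.27, 6.74 and 6.94 CPM with APTKA medium, 4.26, 4.51, 3.95 and 5.77 CPM with APTK medium and 12.5, 13.6, 12.5 and 12.3 CPM in untreated fibroblasts. The groups did not overlap and APTK was lowest, as for Sema3c and Sema3d. Plxna4 fell, at -0.92 ± 0.14 log2 with APTKA medium (adjusted p = 1.68e-06) and -1.46 ± 0.14 with APTK medium (adjusted p = 4.63e-09), and was higher with APTKA than with APTK medium (0.55 ± 0.15, adjusted p = 0.00231). Plxna1, a receptor shared by class 3 and class 6 ligands, averaged 313 ± 21.5 CPM with APTKA medium, 223 ± 15.1 CPM with APTK medium and 241 ± 13.8 CPM in untreated fibroblasts. It was the plexin that rose with APTKA medium (0.38 ± 0.075, adjusted p = 0.000103), and it measured -0.11 ± 0.075 with APTK medium (adjusted p = 0.24). Plxna1 made up 93.8 ± 0.567% of the A plexin signal per kb with APTKA medium, 82.5 ± 0.592% with APTK medium and 83.2 ± 0.637% in untreated fibroblasts (SD, n = 4 each).

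In the other plexins the changes stayed below 1 on the log2 scale. Plxna2, a receptor of Sema6a, averaged 5.15 ± 0.493 CPM with APTKA medium, 4.91 ± 0.584 CPM with APTK medium and 8.89 ± 0.792 CPM in untreated fibroblasts, and fell with both (-0.79 ± 0.12 and -0.85 ± 0.12). Plxnb1, the high-affinity receptor of Sema4d, averaged 18.4 ± 0.831, 17.2 ± 0.440 and 26.4 ± 2.08 CPM in these groups and also fell with both (-0.52 ± 0.12 and -0.62 ± 0.12). Plxnc1, the receptor of Sema7a, averaged 0.748 ± 0.102, 1.06 ± 0.192 and 1.498 ± 0.343 CPM and fell with APTKA medium (-0.99 ± 0.24, adjusted p = 0.000903). With APTK medium it measured -0.50 ± 0.23 (adjusted p = 0.0848), or -0.63 (adjusted p = 0.0356) without untreated library III. Plxnb2, the most abundant member, averaged 635 ± 25.9, 609 ± 30 and 677 ± 21.4 CPM. Its fall of -0.15 ± 0.057 with APTK medium (adjusted p = 0.0316) was lost without untreated library II or IV or APTK library I or III (adjusted p = 0.0569 to 0.109). That call was also lost with upper quartile scaling (-0.11, adjusted p = 0.0927) and with no filter (-0.14, adjusted p = 0.1). With APTKA medium Plxnb2 measured -0.093 (adjusted p = 0.157), and it passed with upper quartile scaling (-0.125, adjusted p = 0.0468). Plxnd1, the receptor of Sema3e, averaged 45.03 ± 1.15, 44.8 ± 3.29 and 50.1 ± 1.87 CPM. It measured -0.15 ± 0.069 with APTKA medium (adjusted p = 0.0574) and -0.16 ± 0.070 with APTK medium (adjusted p = 0.0629). Without untreated library III the first passed (-0.18, adjusted p = 0.0448), and without APTK library II the other passed (-0.21, adjusted p = 0.0301). Both also passed with DESeq2 (adjusted p = 0.0441 and 0.0424) and in a fit of only the groups compared (0.0215 and 0.0354).

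Irradiated APTKA medium was compared with APTKA medium to ask whether the irradiated arm altered these genes. With edgeR, 0 of 25 members rose and 0 fell, where 0.452% of all genes rose and 0.277% fell, and 4 members had an unadjusted p under 0.05, all in the higher direction, beside 6.78% of all genes higher and 5.78% lower at that threshold. DESeq2 called 2 members higher, Sema3d and Sema6d, and 0 lower, beside 1.32% and 0.749% of all genes. It gave no adjusted p for 2 of the 25 members, which could not be called. The DESeq2 shares are of all genes tested, with or without an adjusted p. Sema3d had 24.6, 22.4, 19.97 and 19.9 CPM with irradiated APTKA medium and 14.7, 16.7, 16.7 and 19.4 CPM with APTKA medium, without overlap (0.37 ± 0.095, adjusted p = 0.0682 with edgeR and 0.0186 with DESeq2). Sema6d had 4.43, 4.27, 4.65 and 4.83 CPM with irradiated APTKA medium and 3.698, 3.01, 3.31 and 2.90 CPM with APTKA medium, also without overlap (0.49 ± 0.13, adjusted p = 0.0867 with edgeR and 0.0288 with DESeq2). The other members of this pair at p under 0.05 were Plxna4 (0.31 ± 0.14, adjusted p = 0.35) and Nrp1 (0.12 ± 0.053, adjusted p = 0.347).

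Of the remaining named members, Sema5a had 1.22, 1.15, 1.396 and 0.967 CPM with irradiated APTKA medium and Sema3c had 129, 149, 119 and 98.95 CPM, each overlapping its plain counterpart. Nrp2 had 129.8, 122, 124 and 127 CPM and Plxna3 had 11.6, 11.9, 10.6 and 10.9 CPM. These stayed in the range of the plain APTKA libraries given above, apart from Nrp2 libraries I, III and IV, which were higher. Sema3e had 8.79, 8.14, 9.15 and 10.99 CPM and Sema3f had 15.2, 14.7, 16.4 and 15.3 CPM. Sema4g had 3.13, 2.63, 3.22 and 3.01 CPM, Sema6b had 1.19, 0.866, 1.32 and 1.002 CPM and Plxna4 had 10.2, 7.64, 7.83 and 7.73 CPM, library I highest. Across the 25 members the log2 fold change lay between -0.39 and 0.49, with a median of 0.080 beside 0.004 for all genes.

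With irradiated APTK medium against APTK medium, edgeR again called 0 of 25 members higher and 0 lower, where 0.547% of all genes rose and 0.837% fell. At an unadjusted p under 0.05 there were 2 higher and 5 lower members, beside 7.86% and 7.07% of all genes. DESeq2 called 0 members in either direction, beside 1.41% of all genes higher and 1.55% lower, and gave no adjusted p for 1 member. This comparison depended on irradiated APTK library IV. Without it, 1 member rose and 6 fell, while calls also became more frequent over all genes, of which 4.61% rose and 3.84% fell. Sema5a rose (0.53, adjusted p = 0.0137), while Plxna4 (-0.71, adjusted p = 0.00257), Plxnb1 (-0.56, adjusted p = 8.62e-05), Sema3c (-0.48, adjusted p = 0.00877), Sema3f, Sema3b and Sema4b fell. Without libraries II and IV together, 1 member rose and 4 fell, beside 3.02% and 3.64% of all genes.

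The per-library values show the spread. Plxna4 had 2.91, 2.46, 2.98 and 5.11 CPM with irradiated APTK medium, Sema3c had 40.3, 42.8, 44.6 and 79.8 CPM and Plxnb1 had 12.4, 9.91, 12.3 and 20.3 CPM. In each of these library IV was the highest, within or above the plain APTK libraries, and the other 3 were below them. Sema5a had 7.75, 6.93, 10.1 and 5.15 CPM, with library IV lowest, and Sema3f had 29.6, 19.5, 30.1 and 39.4 CPM, with II lowest and IV highest. The expression of Sema6b was 1.43, 0.573, 1.89 and 1.48 CPM, II lowest, and that of Sema6d was 11.04, 13.5, 11.3 and 8.89 CPM, II highest. The remaining 5 members of the 11 spread less. Nrp2 had 273, 288, 272 and 274 CPM and Plxna3 had 32.7, 26.4, 34.6 and 32.8 CPM. Sema3d had 12.03, 13.4, 12.8 and 16.3 CPM, Sema3e had 20.2, 20.3, 19.8 and 17.9 CPM and Sema4g had 4.67, 4.24, 4.42 and 4.68 CPM. Among them Plxna3 was lowest in II and Sema3d highest in IV. Library II had the lowest total of the series, at 17.3 M counts, and IV had 26.3 M counts. Over all genes, libraries I and IV differed least of the pairs in this group (chi-square per degree of freedom 16.2) and I and III most (83.4). Leaving out II and IV therefore keeps the pair that differed most. Whether a difference in cells, medium or handling set libraries of this group apart was not tested.

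**Figure D4:**
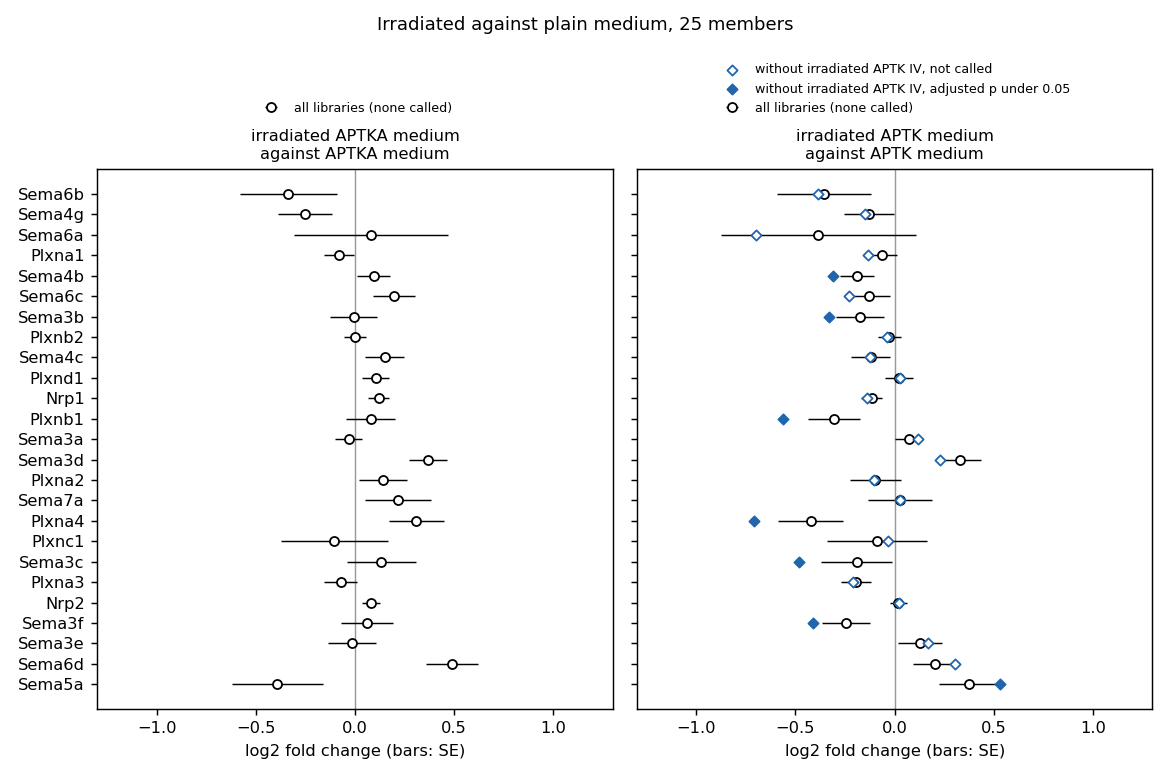
Log2 fold change of the 25 members with irradiated against plain APTKA medium (left) and irradiated against plain APTK medium (right), with SE bars. Open circles use all libraries and no member passed, while blue diamonds show the right-hand comparison without irradiated APTK library IV, where 7 members passed (filled).

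The difference between the irradiation effects, APTKA minus APTK, called 0 members higher and 0 lower with edgeR, where 0.121% of all genes were higher and 0.0607% lower. DESeq2 also called 0, beside 0.506% of all genes higher and 0.263% lower, and gave no adjusted p for 3 members. At an unadjusted p under 0.05 there were 5 members higher and 1 lower, beside 4.72% and 4.3% of all genes. The widest values were those of Plxna4 (0.73 ± 0.22, adjusted p = 0.191) and Sema5a (-0.77 ± 0.28, adjusted p = 0.324). Without irradiated APTK library IV, 4 members were higher and 1 lower, beside 1.22% and 0.825% of all genes. Among them were Plxna4 at 1.02 (adjusted p = 0.00164) and Sema5a at -0.93 (adjusted p = 0.0374). Without II and IV together, 3 members were higher and 1 lower, beside 1.62% and 0.726% of all genes.

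Between irradiated APTKA and irradiated APTK medium, which share no library with the plain pair, 7 of 25 members rose and 8 fell, beside 30.1% and 31.2% of all genes. Without irradiated APTK library IV, 8 rose and 8 fell, beside 29% and 29.4% of all genes. Without its libraries II and IV together, 6 rose and 9 fell, beside 29.8% and 27.1% of all genes, with Plxna2 at 0.22 (adjusted p = 0.208) and Sema6b at -0.61 (adjusted p = 0.0394). With all libraries the median was -0.053 over the members and -0.031 over all genes. Sema5a differed by -2.67 ± 0.19 here and -1.90 ± 0.18 in the plain pair, Plxna3 by -1.49 ± 0.080 and -1.62 ± 0.079, Sema6d by -1.29 ± 0.12 and -1.57 ± 0.12, and Nrp2 by -1.14 ± 0.045 and -1.20 ± 0.045. The class 3 ligands Sema3e (-1.08 ± 0.11), Sema3f (-0.96 ± 0.13) and Sema3a (-0.75 ± 0.070) were lower with irradiated APTKA medium as well, and so was Sema4g (-0.59 ± 0.13). Another 4 members that were lower in the plain pair were not called here. Nrp1 measured -0.053 ± 0.053 (adjusted p = 0.398), against -0.29 ± 0.053 in the plain pair (adjusted p = 3.16e-05). It passed here with upper quartile scaling (-0.13, adjusted p = 0.0339). Sema4c measured -0.02 ± 0.098, Sema6c -0.063 ± 0.10 and Sema7a -0.29 ± 0.16. In the other direction, Plxna4 (1.28 ± 0.15, adjusted p = 6.06e-08), Sema3c (1.25 ± 0.18, adjusted p = 1.16e-05), Sema3d (0.67 ± 0.098) and Plxna1 (0.47 ± 0.075) were higher, as in the plain pair. Plxnb1 (0.49 ± 0.13) and Sema4b (0.35 ± 0.085) also rose, with libraries that overlapped. Plxna2 rose by 0.31 ± 0.13 (adjusted p = 0.0396) with overlapping libraries, a call lost without any 1 of 5 libraries, 3 irradiated APTKA (I, III, IV) and 2 irradiated APTK (II, IV), with an adjusted p of 0.0560 to 0.121. It was also lost with upper quartile scaling (0.23, adjusted p = 0.12) and in a fit of only the groups compared (0.30, adjusted p = 0.0869). Calls gained by leaving out 1 library were those of Sema3b without irradiated APTK IV (0.31, adjusted p = 0.0130), Sema6a without the same library (1.28, adjusted p = 0.0380) or irradiated APTKA II (1.14, adjusted p = 0.0397), Sema6b without irradiated APTK II (-0.56, adjusted p = 0.0329), Sema7a without irradiated APTK I (-0.40, adjusted p = 0.0374) and Plxnc1 without irradiated APTKA I (-0.71, adjusted p = 0.0356). The enteric glia and neuron markers, mostly Tubb3, summed to 116 to 132 CPM with irradiated APTKA and 34.0 to 62.0 CPM with irradiated APTK medium, and their part in these results was not tested. The Nrp2 to Nrp1 ratio per kb was 0.232 ± 0.0108 with irradiated APTKA and 0.494 ± 0.0239 with irradiated APTK medium (SD, n = 4 each).

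Genes that act around semaphorins were read from 5 lists, and their counts, taken with all libraries, stand beside these shares of all genes. With APTKA medium over untreated fibroblasts 31.5% rose and 29.9% fell, and with APTK medium 20.9% and 22.5%. For APTKA against APTK medium the shares were 31.1% and 31.8%, and between the irradiated media 30.1% and 31.2%. Of 10 tested co-receptors and further semaphorin receptors, 3 rose and 4 fell with APTKA medium, and 3 rose and 4 fell with APTK medium, over the same untreated libraries. Itga1, the collagen-binding alpha1 integrin subunit, a partner in Sema7a signalling, averaged 43.4 ± 1.81 CPM with APTKA medium, 126 ± 6.94 CPM with APTK medium and 167 ± 8.93 CPM in untreated fibroblasts (-1.94 ± 0.070 with APTKA medium). Mst1r, a receptor tyrosine kinase that pairs with B plexins, averaged 6.82 ± 0.585, 5.65 ± 0.487 and 1.81 ± 0.348 CPM in these groups and rose with both (1.92 ± 0.13 and 1.65 ± 0.13). Its relative Met averaged 17.1 ± 0.665, 11.7 ± 1.27 and 17.1 ± 1.498 CPM and fell with APTK medium (-0.55 ± 0.11). Of 10 genes, 3 rose and 3 fell with APTKA against APTK medium, and again 3 and 3 between the irradiated media, where 1 rose with upper quartile scaling.

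Other ligands of the neuropilins numbered 6, of which 1 rose and 4 fell with APTKA medium (31.5% and 29.9% of all genes). With APTK medium, 2 rose and 2 fell (20.9% and 22.5% of all genes). Vegfa, the vascular growth factor that uses Nrp1, averaged 366 ± 41.6 CPM with APTKA medium, 375 ± 14.6 CPM with APTK medium and 191 ± 19.5 CPM in untreated fibroblasts and rose with both (0.94 ± 0.079 and 0.98 ± 0.079). Vegfd, a lymphatic growth factor, averaged 12.5 ± 0.341, 20.8 ± 1.24 and 68.5 ± 4.73 CPM and fell with both (-2.45 ± 0.20 and -1.72 ± 0.19). Against APTK medium, APTKA medium had 1 of the 6 higher and 4 lower, and the irradiated media 2 higher and 2 lower. Hgf, the ligand of Met, was the 1 gene of the 6 that rose with irradiated over plain APTKA medium (0.41 ± 0.078), a call lost without APTKA library III (0.39, adjusted p = 0.0527) or IV (0.38, adjusted p = 0.0517).

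All 7 proprotein convertases and sheddases passed the filter, with 3 higher and 4 lower with APTKA medium (31.5% and 29.9% of all genes). With APTK medium there were 1 higher and 5 lower (20.9% and 22.5% of all genes). The 1 higher, Pcsk7 (0.15 ± 0.060), was lost without any 1 of 6 libraries (untreated I, II and III, APTK II, III and IV). Pcsk5, a convertase that processes secreted precursors, averaged 0.517 ± 0.1402 CPM with APTKA medium, 1.26 ± 0.281 CPM with APTK medium and 4.84 ± 0.6003 CPM in untreated fibroblasts and fell with both (-3.22 ± 0.19 and -1.94 ± 0.17). Pcsk6 fell, at -1.70 ± 0.081 with APTKA medium, and the sheddase Adam10 fell, at -0.78 ± 0.059 in the same comparison. Furin, which cleaves class 3 semaphorins, was higher with APTKA than with APTK medium (0.38 ± 0.087), where 3 of the 7 were higher and 4 lower. Between the irradiated media 3 were higher and 2 lower. Mmp14, a membrane-bound metalloproteinase, rose with irradiated over plain APTKA medium (0.33 ± 0.062), a call lost without APTKA library IV (0.29, adjusted p = 0.0543).

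Of 32 tested genes that pass on plexin signals, 13 rose and 11 fell with APTKA medium (31.5% and 29.9% of all genes). With APTK medium, 7 rose and 7 fell (20.9% and 22.5% of all genes). Rnd1, a small GTPase that binds plexin cytoplasmic domains, averaged 52.8 ± 5.21 CPM with APTKA medium, 7.06 ± 1.37 CPM with APTK medium and 8.68 ± 0.842 CPM in untreated fibroblasts. It rose with APTKA medium (2.61 ± 0.13) and was higher with APTKA than with APTK medium (2.90 ± 0.13), as was Rnd3 (1.04 ± 0.076). Dpysl2 (CRMP2), a mediator of Sema3a-induced growth cone collapse, was lower with APTKA than with APTK medium (-1.01 ± 0.056), while its relative Crmp1 was higher (1.10 ± 0.12). In that comparison 10 of the 32 were higher and 12 lower, and between the irradiated media 10 were higher and 9 lower.

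Of 31 tested slit, netrin, ephrin and repulsive guidance genes with their receptors, 5 rose and 15 fell with APTKA medium (31.5% and 29.9% of all genes). With APTK medium, 5 rose and 12 fell (20.9% and 22.5% of all genes). Slit2, a secreted repellent, averaged 9.32 ± 0.4699 CPM with APTKA medium, 21.8 ± 1.69 CPM with APTK medium and 44.5 ± 4.43 CPM in untreated fibroblasts and fell with both (-2.25 ± 0.13 and -1.03 ± 0.12). Ntn1 (netrin-1) averaged 77.5 ± 2.17, 20.4 ± 2.04 and 52.6 ± 3.86 CPM and fell with APTK medium (-1.37 ± 0.079). Its receptor Unc5b averaged 80.1 ± 6.49, 281 ± 13.7 and 312 ± 17.3 CPM and fell with APTKA medium (-1.96 ± 0.071). Epha2, an ephrin receptor, rose with APTKA medium (1.35 ± 0.070). With APTKA against APTK medium 8 of the 31 were higher and 11 lower, and between the irradiated media 9 were higher and 15 lower. Apart from Hgf and Mmp14, no gene of the 5 lists passed with irradiated against plain medium of either line with edgeR and all libraries. Of all genes, 0.452% rose and 0.277% fell with irradiated APTKA medium, and 0.547% and 0.837% with irradiated APTK medium. Without irradiated APTK library IV the latter shares were 4.61% and 3.84%, and list counts are not given for that fit. The median log2 fold changes of the lists with APTKA medium over untreated fibroblasts were -0.28 for co-receptors, -0.47 for neuropilin ligands, -0.59 for convertases and sheddases, 0.032 for signal transducers and -0.21 for the other guidance genes, beside 0.003 for all genes. With APTK medium they were -0.18, 0.048, -0.30, -0.008 and -0.15 in the same order, and no list was tested as a whole.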

How the data were processed

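RNA-seq of 20 libraries in 5 groups of 4 was analysed. The authors deposited raw counts per gene as whole numbers. The submitters' processing notes name the build mm10 and the tools STAR 2.5.2a, bcl2fastq 2.20.0.422 and featureCounts 1.5.0-p1. The sources used here give no annotation release, strand setting or rule for multiply matching reads. Of 47729 identifiers, 47224 matched a symbol and 505 did not.

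In R 4.3.3, edgeR 4.0.16 (TMM scaling, default expression filter by group, robust quasi-likelihood fit of 5 group means, 15 residual degrees of freedom) tested 14820 genes, with Benjamini-Hochberg adjustment over all of them and a threshold of 5%. SE was derived from the F statistic as |log2 fold change| / sqrt(F). All members are named, per-library values are given for the 11 that passed with at least 2-fold change in 1 or more of 7 comparisons, and from each list up to 4 called genes were taken by size. Other members were given as means. The per-library values of Plxnb1 and the gene Pcsk7 were added after their values were seen. Members, lists and tests were chosen with earlier results of these data known. Levels between genes used exon lengths and coordinates of GENCODE M21 (GRCm38, the mm10 assembly), and promoter windows came from RefSeq (GRCm38.p6). The test code was also run on simulated counts, with a small share of genes changed by known folds in 1 group and no deviating library. Those settings differ from these data, so that run does not check the scaling or the error control here. Alternatives were 2 other scalings, 2 other filters, DESeq2 1.42.0, a fit of only the groups compared, a replicate block and leaving out each library. No replicate pair agreed within counting noise, so every library was counted once.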

Additional observations from a re-analysis of the deposited data

Results flagged for a closer look

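In groups of 4, a library was singled out when its gap to the nearest other library took up most of the range of its group (Dixon's criterion at 95%). Of 125 combinations of member and group, 8 met it, where chance gives about 1 in 20. Sema3c was 79.8 CPM in irradiated APTK library IV, above the 40.3 to 44.6 CPM of the other 3, and it bears on the irradiation comparison given above. Nrp2 was 287.7 CPM (against 272 to 274 CPM) and Plxnb2 519.5 CPM (against 614 to 632 CPM) in irradiated APTK library II, the shallowest library of the series. Plxna4 was 10.2 CPM in irradiated APTKA library I, against 7.64 to 7.83 CPM in the others. Sema4c was 48.4 CPM in APTKA library II, against 41.3 to 41.7 CPM, and 56.6 CPM in untreated library IV, against 44.1 to 45.6 CPM. Sema4g was 0.862 CPM in untreated library II, against 1.41 to 1.44 CPM, and Sema6a was 0.273 CPM in untreated library III, against 0.523 to 0.560 CPM. No cause of these values was tested.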

How the results depend on the processing

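No called change of a member turned round under any alternative. For the media against untreated fibroblasts and against each other, plain or irradiated, the counts of members that rose or fell stayed within 1.5 times of those reported under every alternative, left-out libraries included. The irradiation comparisons were less stable. With no filter, 2 members were higher for irradiated against plain APTKA medium (all genes 0.703% higher), 1 was higher and 1 lower for irradiated against plain APTK medium (all genes 0.63% and 0.943%), and 1 was higher for the difference of the effects (all genes 0.505%). DESeq2 and the fit of only the groups compared each called 2 members higher for irradiated against plain APTKA medium (all genes 1.32% and 2.06% higher). Leaving out 1 library in turn gave 0 to 1 higher and 0 to 6 lower for irradiated against plain APTK medium, and 0 to 4 higher and 0 to 1 lower for the difference, with the highest counts without irradiated APTK IV. Leaving out irradiated APTK II and IV together, an alternative chosen after seeing the data, gave 1 higher and 4 lower for irradiated against plain APTK medium, and 3 higher and 1 lower for the difference. The cause was not tested. The replicate block, with numbers I to IV as a term, changed 3 of 175 member results: Plxna2 between the irradiated media lost its call (0.31, adjusted p = 0.0503), while Sema6a there (1.03, adjusted p = 0.0397) and Sema7a with APTK medium (-0.38, adjusted p = 0.0337) gained one. Same-numbered libraries did not deviate together (correlations of deviations -0.0956 to 0.0959 over 24 pairs). No pairing by number was therefore seen in the counts, and the labels do not say what the numbers stand for. Members near 1 CPM, such as Plxnc1, Sema6a and Sema6b, rest on few counts per library, and depth limits the changes that could be detected there.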
